A study of Mus musculus with 30 samples.

Results

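The genes described here are 5 genes of the cardiac pacemaker: the channel genes Hcn2 and Hcn4 and the transcription factor genes Shox2, Isl1 and Tbx3. They were picked by name, with earlier results of these data known, and are 5 of the 48820 genes in the deposited table of expected counts. All 5 were among the 19280 genes that passed a filter on low counts. RNA was measured by sequencing in 30 heart libraries, 3 at each of 10 ages, from untreated mice of the wild-type genotype. The ages were embryonic days 10.5, 12.5, 14.5, 16.5 and 18.5 (E10.5 to E18.5), postnatal day 1 (P1) and postnatal weeks 1, 2, 4 and 8 (1W to 8W). The labels name no strain, sex or heart region. Nor do they say if same-age libraries are from different animals, so the p-values reflect spread among these libraries, which may be technical.

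The heartbeat starts in the sinoatrial node, a small group of specialised muscle cells at the entrance of the right atrium, and passes through the atrioventricular node to the conduction system of the ventricles. The funny current, an inward current that opens on hyperpolarisation and drives the slow depolarisation of node cells, flows through channels built from HCN subunits. HCN4 is the main subunit of the sinoatrial node and HCN2 is also found in node and working heart muscle. SHOX2 and ISL1 are homeodomain transcription factors needed for the development of the sinoatrial node in mice, and ISL1 also marks progenitors of the second heart field, which add cells to the poles of the heart tube. TBX3 is a T-box repressor that holds working muscle genes down in the nodes and the atrioventricular bundle. Node cells are a small share of a whole heart, and in bulk RNA fewer cells of a type and less RNA per cell cannot be told apart.

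In GRCm38 with GENCODE M21 annotation, Hcn2 (ENSMUSG00000020331) lies on chromosome 10 at 79716634 to 79736108 and Hcn4 (ENSMUSG00000032338) on chromosome 9 at 58823412 to 58863175, both on the plus strand. Shox2 (ENSMUSG00000027833) lies on chromosome 3 at 66971727 to 66981771 and Isl1 (ENSMUSG00000042258) on chromosome 13 at 116298281 to 116309689, both on the minus strand. Tbx3 (ENSMUSG00000018604) lies on chromosome 5 at 119670669 to 119684724 on the plus strand. The counts cover whole genes, exons and UTRs included, as far as the annotation used by the authors did.

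The split of reads between Hcn2 and Hcn4 depends on how far their sequences differ, so the stretch around their longest identical run is shown. No search was made for the window with the fewest differences. The longest run of identical bases shared by their coding sequences was 32 bases. The 120 coding bases around it, coding positions 1127 to 1246 in Hcn2 and 1361 to 1480 in Hcn4 of GENCODE M21 transcripts in GRCm38, differed at 26 positions, which are in capitals.
Hcn2: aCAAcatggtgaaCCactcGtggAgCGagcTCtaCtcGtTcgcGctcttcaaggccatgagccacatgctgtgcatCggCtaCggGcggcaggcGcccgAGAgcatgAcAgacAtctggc
Hcn4: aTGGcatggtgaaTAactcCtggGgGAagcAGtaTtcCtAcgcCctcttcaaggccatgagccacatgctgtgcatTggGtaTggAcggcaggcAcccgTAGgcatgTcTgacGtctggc
Each differing base lies outside the shared run in the middle, so a read that spans more than this run meets at least 1 difference in the window.

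Shox2 and Isl1 fell together with age, and their promoter windows are shown for that reason. The windows run from 250 bases before to 50 bases after the RefSeq transcription start in GRCm38.p6, on the minus strand, at chr3:66981722-66982021 for Shox2 and chr13:116309639-116309938 for Isl1. Capitals mark matches on either strand to the motifs searched, which were the TATA box (TATAAA), the CCAAT box (CCAAT), the GC box (GGGCGG), a T-box half-site (GGTGTGA) and the homeodomain palindrome (TAATTA).
Shox2: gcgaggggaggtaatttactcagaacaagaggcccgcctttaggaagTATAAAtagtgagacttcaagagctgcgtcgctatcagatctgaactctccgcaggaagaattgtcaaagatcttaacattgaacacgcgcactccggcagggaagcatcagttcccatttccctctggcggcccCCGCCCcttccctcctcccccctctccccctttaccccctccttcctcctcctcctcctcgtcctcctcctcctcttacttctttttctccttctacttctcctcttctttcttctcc
Isl1: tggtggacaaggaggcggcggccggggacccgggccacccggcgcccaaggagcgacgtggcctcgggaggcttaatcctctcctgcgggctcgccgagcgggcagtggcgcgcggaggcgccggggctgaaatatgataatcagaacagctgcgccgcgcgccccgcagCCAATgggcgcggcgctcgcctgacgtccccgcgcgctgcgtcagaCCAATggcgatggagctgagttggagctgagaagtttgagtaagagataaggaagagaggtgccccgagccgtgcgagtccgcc
The Shox2 window held 1 TATA box motif starting 203 bases before the start and 1 GC box on the opposite strand 68 bases before it. The Isl1 window held 2 CCAAT boxes, starting 80 and 34 bases before the start. A TATA box motif was present in 13.6%, a CCAAT box in 37.4% and a GC box in 35.7% of 32851 promoter windows of the same length. The T-box half-site (3.98% of all windows) and the palindrome (5.29%) had no match in these windows or in those of Hcn2 and Hcn4. Isl1 had 37 CpG dinucleotides in its window and Shox2 11, where the median window had 7. Hcn2 and Hcn4 had 26 and 31 CpG and 3 and 2 GC boxes.

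Library totals ranged from 23164941 to 50519457 counts. Levels are given as CPM, counts relative to the library size after scaling with TMM (trimmed mean of M values) factors, which ran from 1.34 at E10.5 to 0.603 at 8W. Sex-linked transcripts were uneven: all P1 libraries had Y transcripts without Xist, all 4W and 8W libraries had Xist without Y transcripts, and all E10.5 libraries had both. E10.5 replicate 2 stood apart in Rn7sk, a small nuclear RNA, with 27907 CPM against 4573 and 4314 CPM in the other E10.5 libraries. Markers of working heart muscle (7 genes, Tnnt2 and Ttn among them) summed to between 19889 and 39205 CPM at E10.5 and between 208493 and 227344 CPM at 8W, with none at 0 in any library. Atrial markers (7 genes, Sln and Myl7 among them) summed to 2641 to 4273 CPM at E10.5. Their sum was 1050 to 1106 CPM at 1W and 1560 to 2141 CPM at 8W. Most of it was Myl4 and Myl7, which fell from means of 2015 to 756 and of 1116 to 579 CPM between E10.5 and 8W. Sln rose from 1.16 to 194 CPM between these ages. Of the 7 markers 3 rose and 4 fell, where 79.9% of all genes were called. The sum of the working muscle markers was higher at 8W than at E10.5 but did not rise at every step. Its mean was 29983 CPM at E10.5 and 21913 CPM at E12.5, and 222082 CPM at 4W and 220670 CPM at 8W. The part of muscle RNA in the levels of the pacemaker genes was not tested.

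All 5 genes changed across the 10 ages (edgeR quasi-likelihood test, adjusted p between 1.9e-29 for Hcn2 and 1.8e-08 for Tbx3), beside 93.6% of all genes tested. The shapes differed. Hcn2 spanned 224-fold between its highest and lowest age means and Isl1 39.3-fold, while Shox2 spanned 13.6-fold, Hcn4 3.11-fold and Tbx3 2.45-fold.

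**Figure D1:**
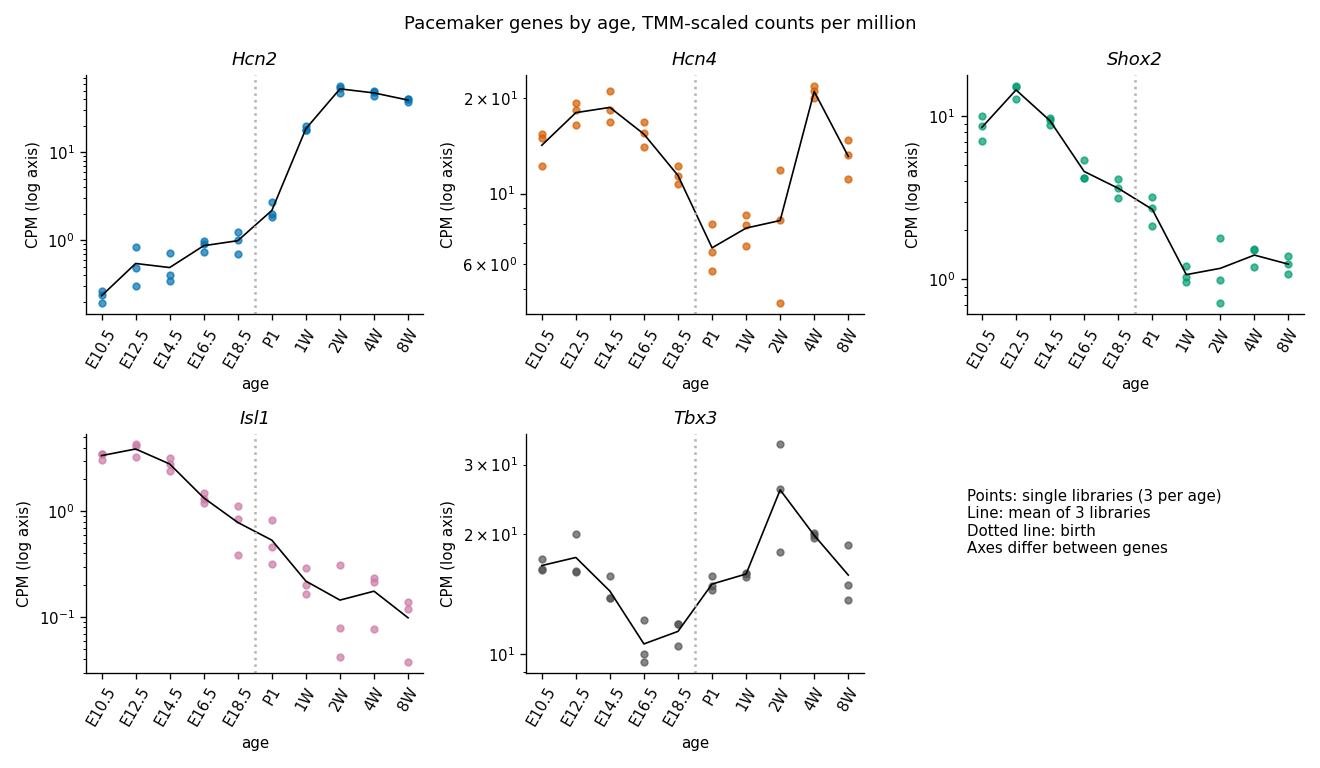
CPM of the 5 pacemaker genes by age on log axes that differ between genes. Points are single libraries (3 per age), lines join the age means and the dotted line marks birth. Hcn2 climbs from 0.235 CPM at E10.5 to 52.7 CPM at 2W, Shox2 and Isl1 have their highest means at E12.5 (for Isl1 no change on either side of it was called), Hcn4 is lowest at P1 and highest at 4W, and Tbx3 stays between 10.6 and 25.9 CPM.

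Hcn4, the main pacemaker channel gene of the sinoatrial node, was high in the embryo, low around birth and high again at 4W. Its level was 15.0, 12.2 and 15.4 CPM in the E10.5 libraries, 19.3, 18.3 and 16.4 CPM at E12.5 and 21.0, 16.8 and 18.3 CPM at E14.5. It was then 16.8, 14.0 and 15.5 CPM at E16.5 and 12.2, 10.7 and 11.4 CPM at E18.5. The P1 libraries held 6.52, 5.70 and 8.00 CPM, all below every embryonic library. After birth the level was 8.58, 7.95 and 6.83 CPM at 1W and 8.23, 4.51 and 11.9 CPM at 2W. The 4W libraries held 21.0, 19.9997 and 21.9 CPM and the 8W libraries 11.1, 13.2 and 14.8 CPM. The 4W libraries did not overlap those of 2W or 8W, while the 2W libraries spread over a range that takes in every P1 value and 2 of the 3 E18.5 values. Lung epithelial markers (6 genes) summed to 44.0, 16.4 and 0.155 CPM in the 4W libraries. Almost all of this was Scgb1a1, an airway secretory gene, with a 4W mean of 19.2 CPM, while Sftpc, Sftpb, Nkx2-1 and Cldn18 were at 0 in all 4W libraries, and the part of lung tissue in Hcn4 was not tested. Ordered by mean, the ages ran 4W, E14.5, E12.5, E16.5, E10.5, 8W, E18.5, 2W, 1W and P1, and the libraries of every neighbouring pair in this order overlapped.

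Hcn4 fell from E18.5 to P1 (log2 change -0.76 ± 0.19 SE, edgeR adjusted p = 0.0024). It rose from 2W to 4W (1.35 ± 0.19, adjusted p = 4.4e-06) and fell from 4W to 8W (-0.68 ± 0.19, adjusted p = 0.0083). The rise was between 1.06 and 1.71 with any single library left out. The sum of the atrial markers also rose, from 1255, 1096 and 1133 CPM in the 2W libraries to 1768, 1862 and 1989.5 CPM at 4W, without overlap. Of these 7 markers 4 rose and 2 fell from 2W to 4W, where 28.9% of all genes were called, and Myl4, an atrial myosin light chain, went from a mean of 395 to 823 CPM. From 4W to 8W, where Hcn4 fell, the atrial sum had means of 1873 and 1851 CPM. At that step 1 of the 7 markers fell and none rose, where 23.9% of all genes were called. The sum was lowest at 1W (mean 1069.6 CPM) and had a mean of 1524 CPM at P1, where Hcn4 was lowest. The part of atrial tissue in these Hcn4 changes was not tested. From P1 to 8W Hcn4 rose by 0.96 ± 0.19 (adjusted p = 9.7e-05). With library size alone in place of TMM this last difference was 0.18 (adjusted p = 0.42), since that scaling moves the median of all genes by -0.77 between these ages. Between E10.5 and E18.5 the change was -0.32 ± 0.18 (adjusted p = 0.14), and it was called with library size alone (-0.48, adjusted p = 0.03) and without 2W replicate 2 (adjusted p = 0.036), although the libraries of the 2 ages did not overlap. From E10.5 to 8W it was -0.12 ± 0.19 (adjusted p = 0.56), against -1.18 (adjusted p = 3.4e-06) with library size alone. From E16.5 to E18.5 the change was -0.43 ± 0.18 (adjusted p = 0.087), without overlap of the libraries. It was called in a fit of 6 samples (adjusted p = 0.0012) and without 2W replicate 2 (adjusted p = 0.014) or 3 (adjusted p = 0.023). From E14.5 to E16.5 it was -0.28 ± 0.18 (adjusted p = 0.28, or 0.016 in a fit of 6 samples). The rise from E10.5 to E12.5 was 0.34 ± 0.18 (adjusted p = 0.11), called without 2W replicate 2 (adjusted p = 0.027) or 3 (adjusted p = 0.041).

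Hcn2, which encodes a second HCN subunit, had few counts in the embryonic heart and rose steeply after birth. The E10.5 libraries held 0.194, 0.268 and 0.243 CPM, which were 6, 9 and 10 counts. The level was 0.490, 0.304 and 0.848 CPM at E12.5, 0.407, 0.344 and 0.726 CPM at E14.5 and 0.902, 0.977 and 0.733 CPM at E16.5. All these libraries lay below 1 CPM. At E18.5 the libraries held 1.01, 1.26 and 0.706 CPM and at P1 2.70, 1.84 and 2.02 CPM. The 1W libraries held 18.0, 19.9 and 17.8 CPM and the 2W libraries 57.3, 53.7 and 47.0 CPM. The level was 44.1, 48.8 and 49.4 CPM at 4W and 40.6, 40.1 and 37.4 CPM at 8W. From P1 to 2W each age lay above the one before it without overlap, and the libraries of 2W and 4W overlapped.

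Hcn2 rose by a log2 change of 3.08 ± 0.17 from P1 to 1W (8.46-fold, edgeR adjusted p = 1.3e-14) and by 1.51 ± 0.15 from 1W to 2W (2.84-fold, adjusted p = 1.6e-09). Over the whole span from E10.5 to 8W it rose 164-fold (7.36 ± 0.24, adjusted p = 1.4e-23). Smaller rises were called from E18.5 to P1 (1.12 ± 0.22, adjusted p = 0.00015), E10.5 to E12.5 (1.20 ± 0.36, adjusted p = 0.0047) and E14.5 to E16.5 (0.82 ± 0.28, adjusted p = 0.03). The E12.5 call was lost without E12.5 replicate 3 (adjusted p = 0.1), which held the highest Hcn2 level of that age, and in a fit of 6 samples (adjusted p = 0.087). The E16.5 call was lost without E14.5 replicate 1 or 2 or E16.5 replicate 1 or 2, where the change lay between 0.63 and 1.21 over all libraries left out. It was also lost with library size alone (0.67, adjusted p = 0.073) and in a fit of 6 samples (0.81, adjusted p = 0.082).

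Set against each other, the pair of channel genes changed places between P1 and 1W. Among Hcn2 and Hcn4 counts together, Hcn2 made up 1.28%, 2.14% and 1.55% in the E10.5 libraries and 7.65%, 10.6% and 5.81% at E18.5. It made up 29.3%, 24.4% and 20.2% at P1 and 67.7%, 71.5% and 72.2% at 1W. These 4 ages were in ascending order with no overlap. The share was 86.5% ± 6.31 (SD, n = 3) at 2W, 69.3% ± 1.62 at 4W and 75.1% ± 3.43 at 8W. Ages differed in this share (permutation test over the 30 libraries with 100000 resamples, p = 1e-05, the smallest it can give), and this ratio within a library does not depend on scaling between libraries.

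Per kilobase of exon, which allows levels of different genes to be compared, Hcn4 stood at 2.32 ± 0.284 CPM per kb at E10.5 and Hcn2 at 0.0735 ± 0.0118. At P1 Hcn4 stood at 1.10 ± 0.190 CPM per kb and Hcn2 at 0.685 ± 0.142, and at 8W Hcn4 stood at 2.14 ± 0.302 and Hcn2 at 12.3 ± 0.538. Of the summed level of both genes per kb, Hcn2 held 3.12% ± 0.821 at E10.5, 38.4% ± 5.80 at P1 and 85.2% ± 2.31 at 8W. Hcn3, a further subunit gene, stood at 0.102 ± 0.0553 CPM per kb at E10.5 and 0.0804 ± 0.0319 at 8W, and had no count in 2 of the 3 libraries of 2W.

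**Figure D2:**
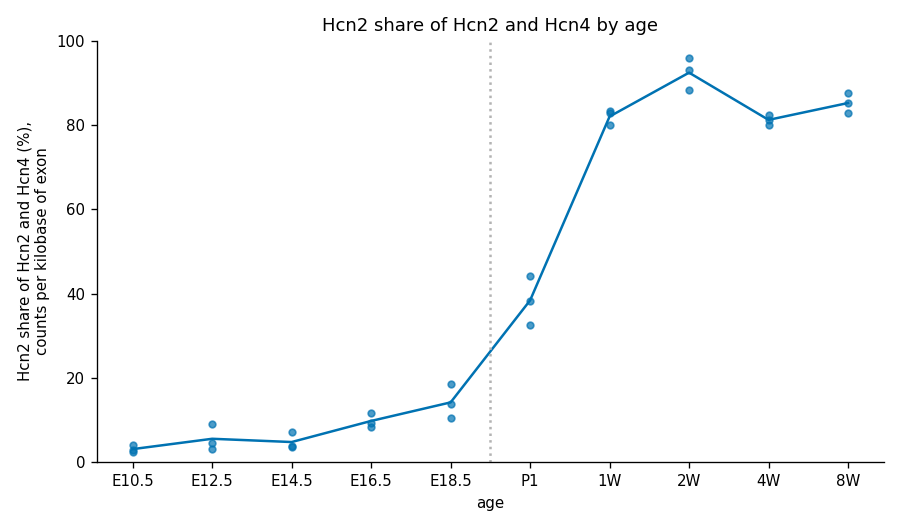
Share of Hcn2 in the summed level of Hcn2 and Hcn4 (counts per kilobase of exon, percent) by age. Points are single libraries, the line joins the means of 3 libraries and the dotted line marks birth. Hcn2 holds 3.12% at E10.5, 38.4% at P1 and 85.2% at 8W.

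Shox2, the homeodomain factor of the sinus venosus and sinoatrial node, peaked at E12.5 and was low from 1W on. The libraries held 8.69, 9.97 and 7.03 CPM at E10.5, 15.2, 12.8 and 15.4 CPM at E12.5 and 9.72, 9.54 and 8.90 CPM at E14.5. They held 4.17, 4.19 and 5.42 CPM at E16.5, 4.11, 3.14 and 3.61 CPM at E18.5 and 2.74, 2.12 and 3.21 CPM at P1. Every E12.5 library was above every library of the other ages, and the libraries of E18.5 and P1 overlapped. The level was 0.966, 1.21 and 1.03 CPM at 1W, 0.994, 0.716 and 1.79 CPM at 2W, 1.19, 1.54 and 1.51 CPM at 4W and 1.25, 1.40 and 1.08 CPM at 8W. These last 4 ages overlapped one with the next and all lay below P1.

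Shox2 rose from E10.5 to E12.5 (0.76 ± 0.17, edgeR adjusted p = 0.00034) and fell at the next steps, to E14.5 (-0.62 ± 0.17, adjusted p = 0.0088) and to E16.5 (-1.03 ± 0.18, adjusted p = 4.4e-05). It fell again from P1 to 1W (-1.33 ± 0.22, adjusted p = 1.2e-05). From E18.5 to P1 the change was -0.42 ± 0.20 (adjusted p = 0.09), and it was called with library size alone (adjusted p = 0.024) and without P1 replicate 3 (adjusted p = 0.038) or 2W replicate 3 (adjusted p = 0.044). The Shox2 exons share 153 bases with Rsrc1, a splicing-related gene on the opposite strand with a total of 20079 counts against 5483 for Shox2. Whether the authors counted by strand is not stated in the sources, so reads of these bases cannot be told apart. Rsrc1 stood at 23.9 ± 1.07 CPM at E12.5 and 13.3 ± 0.734 CPM at 8W.

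Isl1, the LIM homeodomain factor of second heart field progenitors and of the sinoatrial node, followed a course like that of Shox2 at a lower level. It stood at 3.07, 3.51 and 3.50 CPM in the E10.5 libraries, 4.11, 4.28 and 3.24 CPM at E12.5 and 2.78, 2.41 and 3.22 CPM at E14.5. It stood at 1.21, 1.31 and 1.50 CPM at E16.5, 0.384, 1.12 and 0.847 CPM at E18.5 and 0.461, 0.820 and 0.321 CPM at P1. The E16.5 libraries lay below every E14.5 library and above every E18.5 library. Later values were 0.166, 0.201 and 0.291 CPM at 1W, 0.0795, 0.0421 and 0.314 CPM at 2W, 0.217, 0.233 and 0.0775 CPM at 4W and 0.139, 0.0378 and 0.120 CPM at 8W. The 8W libraries held 3, 1 and 3 counts, so the order of the ages from 1W on, where each age overlaps the next in order of mean, cannot be read. Isl1 is also expressed in autonomic neurons, whose markers (8 genes, Dbh and Prph among them) summed to 2.1 to 2.5 CPM at E10.5 and to 6.73 to 9.05 CPM at 8W. Of these markers Chat was at 0 in 19 of the 30 libraries, and their part in Isl1 was not tested.

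The highest Isl1 mean was at E12.5, but neither the change from E10.5 to E12.5 (0.20 ± 0.29, edgeR adjusted p = 0.57) nor that from E12.5 to E14.5 (-0.47 ± 0.29, adjusted p = 0.29, or 0.033 in a fit of 6 samples) was called. Isl1 fell from E14.5 to E16.5 (-1.06 ± 0.31, edgeR adjusted p = 0.011), a call lost by a narrow margin without E14.5 replicate 3 or E16.5 replicate 1 (adjusted p = 0.053 in both). The fall from P1 to 1W (-1.24 ± 0.43, adjusted p = 0.025) was lost without P1 replicate 2 (adjusted p = 0.23) or 1W replicate 1 or 2, and with a term for sex-linked transcripts (adjusted p = 0.095). Over the longer spans Isl1 fell by 2.06 ± 0.32 on the log2 scale from E10.5 to E18.5 (adjusted p = 1.5e-06) and by 2.42 ± 0.57 from P1 to 8W (adjusted p = 0.00036). From E10.5 to 8W Isl1 fell by 5.08 ± 0.47 (33.8-fold, adjusted p = 1.2e-11) and Shox2 fell by 2.78 ± 0.21 (6.86-fold, adjusted p = 1.3e-13).

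Tbx3, the T-box repressor of the nodes, moved least among the 5 genes. Its level was 16.3, 17.3 and 16.4 CPM at E10.5, 16.2, 20.1 and 16.1 CPM at E12.5 and 15.7, 13.8 and 13.8 CPM at E14.5. It was 9.55, 10.02 and 12.2 CPM at E16.5 and 11.9, 10.5 and 11.9 CPM at E18.5. The libraries of E16.5 and E18.5 overlapped each other and lay below all other libraries. The level was 15.7, 14.8 and 14.5 CPM at P1, 15.6, 16.0 and 15.9 CPM at 1W and 26.1, 18.1 and 33.7 CPM at 2W. It was 19.6, 19.9 and 20.2 CPM at 4W and 14.9, 18.8 and 13.7 CPM at 8W. The 2W libraries spread most and overlapped those of 4W, while those of 8W overlapped P1 and 1W.

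Tbx3 fell from E14.5 to E16.5 (-0.45 ± 0.14, edgeR adjusted p = 0.018) and rose from E18.5 to P1 (0.40 ± 0.14, adjusted p = 0.027) and from 1W to 2W (0.71 ± 0.14, adjusted p = 0.0002). The E16.5 call was lost without E14.5 replicate 1 or E16.5 replicate 1 or 2. The P1 call was lost without E18.5 replicate 2 (adjusted p = 0.11) or P1 replicate 1 or 2, with library size alone (adjusted p = 0.12) and with the sex term. The fall from 2W to 4W (-0.38 ± 0.14, adjusted p = 0.038) was -0.15 without 2W replicate 3 (adjusted p = 0.46), and it was also lost without 2W replicate 1 or any of the 4W libraries, with the sex term (adjusted p = 0.068) and in a fit of 6 samples (adjusted p = 0.15). From E10.5 to 8W the change was -0.08 ± 0.14 (adjusted p = 0.63), and with library size alone, which moves the median of all genes by -1.04, it was -1.12 (adjusted p = 1.3e-08). With upper quartile factors it was -0.35 (adjusted p = 0.031). The exons of Tbx3 share 115 bases with the antisense gene Tbx3os1, which had 270 counts in all against 16173 for Tbx3.

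Over the part of gestation sampled here, E18.5 against E10.5, Hcn2 rose, Shox2, Isl1 and Tbx3 fell and Hcn4 was not called. These were 4 calls among 5 genes where 63.3% of all tested genes were called, 32.9% higher and 30.4% lower. At birth, P1 against E18.5, Hcn2 and Tbx3 rose and Hcn4 fell, 3 of 5 where 38.8% of all genes were called (19.8% higher, 19% lower). From P1 to 8W, Hcn2 and Hcn4 rose and Shox2 and Isl1 fell, 4 of 5 where 66.8% of all genes were called (31.8% higher, 35.1% lower). From E10.5 to 8W Hcn2 rose and Shox2 and Isl1 fell, 3 of 5 where 79.9% were called (37.8% higher, 42.1% lower). With library size alone, the share of higher genes among all calls was 35.4% in place of 50.9% for P1 against E18.5, 15.0% in place of 47.5% for 8W against P1 and 23.6% in place of 47.4% for 8W against E10.5. With upper quartile factors it was 37.2% for 8W against P1. These comparisons share libraries, so their calls are not independent.

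Between neighbouring ages the calls of the 5 genes fell on different steps. E12.5 against E10.5 gave 2 calls (Hcn2 and Shox2) where 55.4% of all genes were called, and E14.5 against E12.5 gave 1 (Shox2) where 18.3% were. From E14.5 to E16.5 all but Hcn4 were called, 4 of 5 where 26% of all genes were. From E16.5 to E18.5 none of the 5 was called by edgeR or by DESeq2, where 24.2% of all genes were called, and 2 had an unadjusted edgeR p below the threshold of 0.05. After birth there were 3 calls from P1 to 1W (35.8% of all genes), 2 from 1W to 2W (29.6%), 2 from 2W to 4W (28.9%) and 1 from 4W to 8W (23.9%). In the 7 steps, P1 against E18.5 included, where library size alone moved the share of higher genes among calls by more than 10 points, that share was between 13.9% and 39.8% in place of 49.4% to 54.8%. With upper quartile factors it was 42.4% from 2W to 4W and 37.9% from 4W to 8W.

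**Figure D3:**
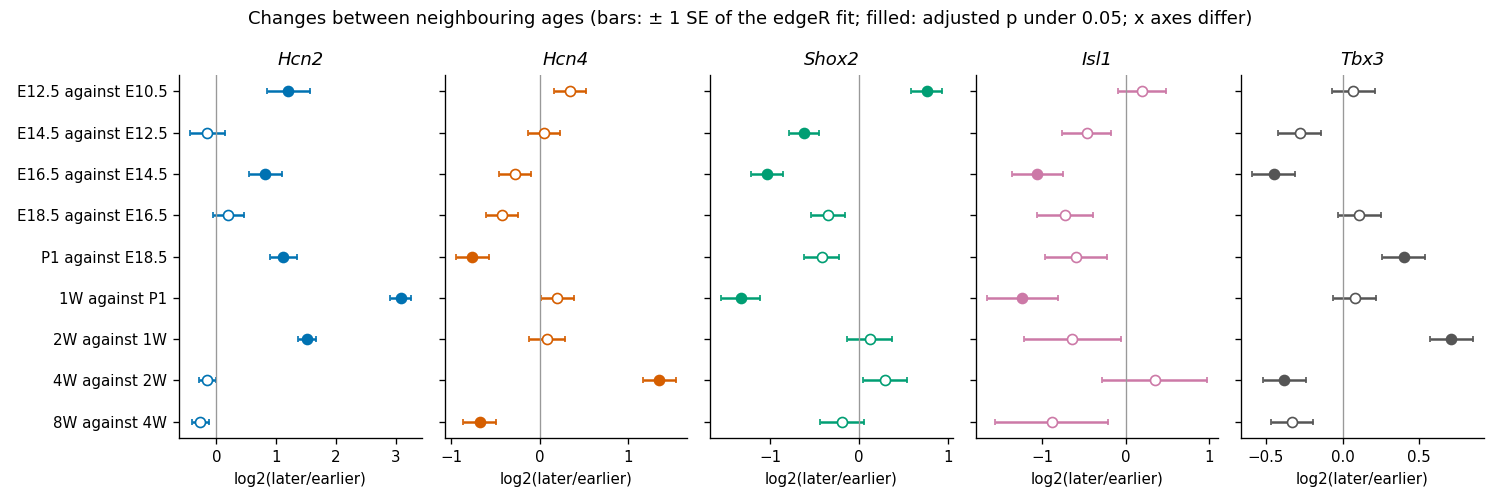
Log2 change of each gene between neighbouring ages, with bars of 1 SE of the edgeR fit and filled points for an adjusted p under 0.05. The x axes differ between genes. The largest steps are 3.08 for Hcn2 from P1 to 1W, 1.51 for Hcn2 from 1W to 2W, 1.35 for Hcn4 from 2W to 4W and -1.33 for Shox2 from P1 to 1W, and no gene is filled from E16.5 to E18.5.

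At 2W, 4 of the 5 genes had their lowest level in replicate 2 and their highest in replicate 3, and Hcn2 had not. Hcn4 stood 0.87 below its 2W mean in replicate 2 and 0.54 above it in replicate 3 on the log2 scale of CPM over the mean. Among all tested genes 24.0% had this order of the 3 libraries. Among 8 genes enriched in node cells 5 had it, among 12 genes of pacemaking currents 5, and among 7 tested markers of neurons 7. The neuron markers summed to 8.47, 5.56 and 11.6 CPM in replicates 1 to 3, and the atrial markers, 1 of 7 with this order, to 1255, 1096 and 1133 CPM. The part of these tissues in the spread of the pacemaker genes was not tested.

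**Figure D4:**
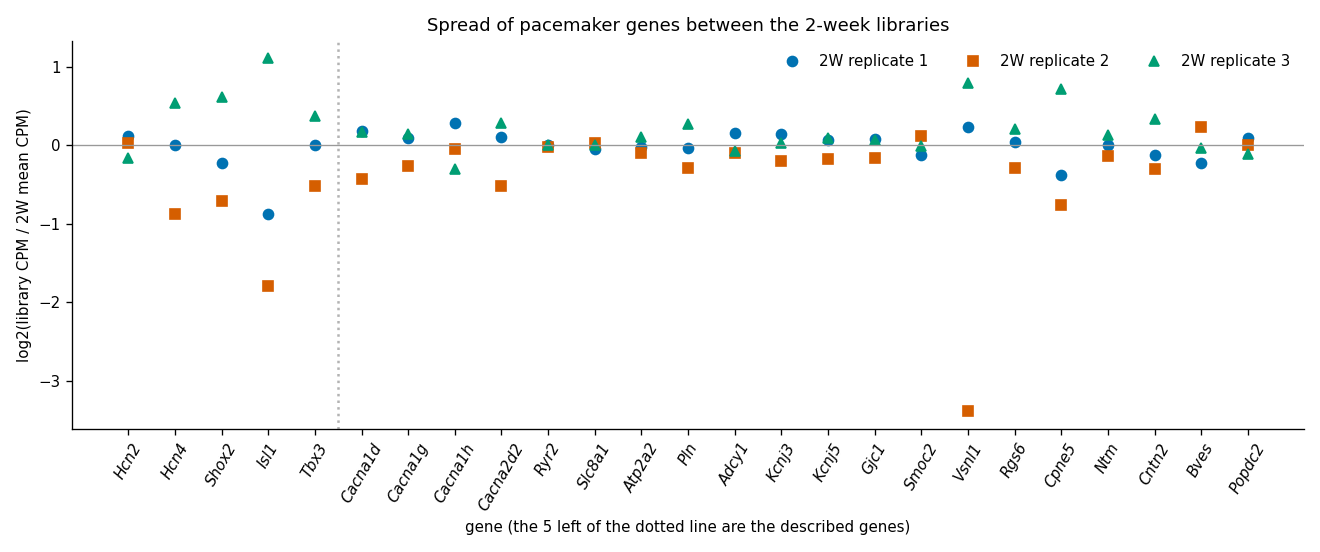
Level of single genes in the 3 libraries of 2W, as log2 of CPM over the 2W mean. The 5 pacemaker genes are left of the dotted line, and tested genes of pacemaking currents and node-enriched genes are to its right. For Hcn4, Shox2, Isl1 and Tbx3 replicate 2 is lowest and replicate 3 highest, and for Hcn2 replicate 3 is lowest.

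Genes that act with the HCN channels moved in both directions. Of 7 relatives and partners, 3 rose and 3 fell from E10.5 to E18.5, 6 of 7 called where 63.3% of all genes were (median log2 change -0.98, where all tested genes had -0.00). Cav3, the muscle caveolin, rose from 17.6 ± 5.43 to 56.6 ± 2.07 CPM (1.69 ± 0.13, edgeR adjusted p = 1.5e-12) and Lrmp, a partner of HCN4, fell from 1.98 ± 0.569 to 0.993 ± 0.10 CPM (-0.98 ± 0.28, adjusted p = 0.0029). From P1 to 8W, 2 rose and 2 fell, 4 of 7 called where 66.8% of all genes were (median 0.29, all genes -0.10). Mrvi1 rose from 24.3 ± 1.48 to 34.6 ± 1.69 CPM (0.51 ± 0.13, adjusted p = 0.00092). Kcne2, a small accessory subunit, had 24 counts at P1 and none at 8W, at least 6.45-fold lower if 3 counts in the summed 8W libraries are taken as the floor. The list's median was also 0.29 with this bound.

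Of 12 tested genes of the other pacemaking currents and calcium handling, 6 rose and 4 fell from E10.5 to E18.5 (median 0.19) and again 6 rose and 4 fell from P1 to 8W (median 0.18). In each span 10 of 12 were called, where 63.3% and 66.8% of all genes were. Cacna1g, the T-type calcium channel of node cells, rose from 1.81 ± 0.359 to 53.1 ± 1.14 CPM in the embryo (4.89 ± 0.17, edgeR adjusted p = 1.6e-20). Cacna1d, the L-type channel of the sinoatrial node, fell in both spans, from 35.3 ± 4.39 to 20.3 ± 1.23 CPM before birth (-0.80 ± 0.14, adjusted p = 1.4e-05) and from 21.2 ± 6.25 to 8.24 ± 0.824 CPM after it (-1.37 ± 0.16, adjusted p = 5.4e-09). Kcnj3, a subunit of the acetylcholine-gated potassium channel, rose from 52.0 ± 5.84 to 182 ± 9.35 CPM after birth (1.80 ± 0.11, adjusted p = 3.7e-16). Gjc1, the gap junction gene of the nodes, fell from 44.1 ± 5.87 to 20.2 ± 1.37 CPM after birth (-1.12 ± 0.09, adjusted p = 1.1e-12). The calcium pump gene Atp2a2 and its inhibitor Pln, both abundant in all heart muscle, rose in both spans.

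Of 8 other transcription factors of the conduction system, 3 rose and 3 fell before birth (median -0.15), and 5 fell and none rose from P1 to 8W (median -0.60). The first were 6 of 8 called where 63.3% of all genes were, and the second 5 of 8 where 66.8% were, 35.1% lower. With library size alone all 8 were called from P1 to 8W, where 11.5% of all genes were called higher and 65.2% lower. Tbx18, the T-box factor of the sinus venosus, fell after birth from 28.0 ± 1.96 to 6.87 ± 0.439 CPM (-2.03 ± 0.13, edgeR adjusted p = 5.2e-15). Id2 fell in both spans, from 162 ± 51.3 to 29.8 ± 3.33 CPM before birth (-2.45 ± 0.16, adjusted p = 6.7e-13). Irx3, a factor of the ventricular conduction system, rose before birth (0.96 ± 0.18, adjusted p = 2.5e-05).

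Genes enriched in node cells split as well. Of 8, 5 rose and 3 fell before birth (median 1.14), and 3 rose and 4 fell after it (median -0.15). These were 8 of 8 called where 63.3% of all genes were and 7 of 8 where 66.8% were. Vsnl1, a calcium sensor gene, fell in both spans, from 13.4 ± 2.27 to 4.32 ± 0.432 CPM before birth (-1.64 ± 0.24, edgeR adjusted p = 7.1e-07) and to 0.350 ± 0.205 CPM by 8W from P1 (-2.86 ± 0.39, adjusted p = 1.9e-07). Cntn2, a cell adhesion gene of the conduction system, rose in both, from 0.395 ± 0.223 to 3.07 ± 0.662 CPM before birth (2.92 ± 0.30, adjusted p = 1.6e-09) and from 7.81 ± 1.09 to 34.9 ± 4.33 CPM after it (2.16 ± 0.19, adjusted p = 7.7e-11). Smoc2 rose in both spans, by 2.55 ± 0.10 and 2.60 ± 0.09 (adjusted p = 2.9e-20 and 2.2e-21).

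TBX3 is known from the mouse to repress a set of working muscle genes. Of 6 such genes, 5 rose and none fell from E10.5 to E18.5 (median 1.30), where 63.3% of all genes were called, 32.9% higher. It was the span in which Tbx3 fell by 0.55 ± 0.14 on the log2 scale (edgeR adjusted p = 0.0011), and the summed muscle markers rose over the same span from a mean of 29983 to 82285 CPM. Gja1, the main gap junction gene of the ventricles, rose from 137 ± 31.2 to 513 ± 7.97 CPM (1.91 ± 0.12, adjusted p = 8.8e-16) and Nppa rose by 1.77 ± 0.12 (adjusted p = 5.3e-14). Over the embryonic steps in order of age, 3, 2, 2 and 3 of the 6 rose and 0, 0, 0 and 1 fell. At these steps 55.4%, 18.3%, 26% and 24.2% of all genes were called. Tbx3 was called at 1 of them, from E14.5 to E16.5 (-0.45 ± 0.14). The part of Tbx3 or of muscle content in these rises was not tested. From P1 to 8W, 4 rose and 1 fell (median 0.48), where 66.8% of all genes were called, 31.8% higher, and Tbx3 itself had a change of 0.08 ± 0.14. Kcnj2, an inward rectifier potassium channel gene of working muscle, rose by 1.71 ± 0.17 (adjusted p = 5.9e-09) and Gja5, the gap junction gene of atria and His-Purkinje cells, fell by 1.47 ± 0.15 (adjusted p = 4e-09).

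Of 9 tested genes of the second heart field, in which Isl1 is expressed, 2 rose and 4 fell before birth (median -0.31), and 2 rose and 4 fell after it (median -1.10). The second median takes Fgf8, which was not called, at its fitted fall from 3 counts at P1 to none at 8W. A floor of 3 counts in the summed 8W libraries puts the bound of that fall at 0.806-fold. This is below 1, so the direction of Fgf8 cannot be read, and the median of -0.11 at this bound rests on it. In each span 6 of 9 were called, close to the 63.3% and 66.8% of all genes. Fgf10 fell from 1.86 ± 0.822 to 0.668 ± 0.323 CPM before birth (-1.46 ± 0.44, edgeR adjusted p = 0.0049). Foxc2 fell in both spans, by 0.96 ± 0.12 and 1.37 ± 0.15 (adjusted p = 3.9e-08 and 8.5e-10). Hand2 rose after birth by 0.53 ± 0.10 (adjusted p = 4.5e-05).

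**Figure D5:**
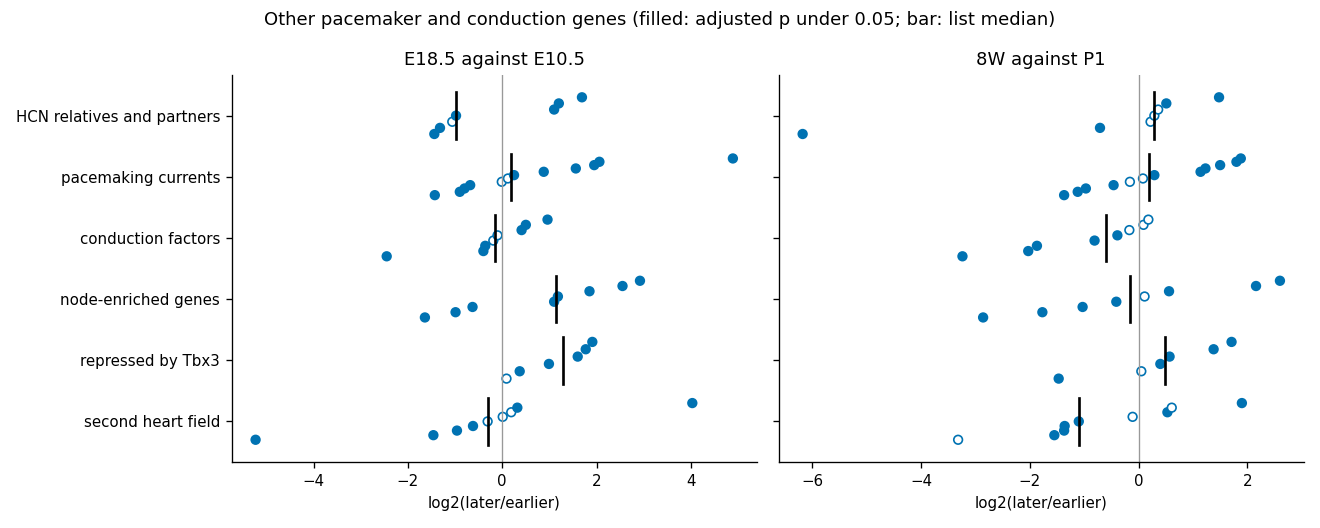
Log2 change of single genes in 6 lists of other pacemaker and conduction genes from E10.5 to E18.5 and from P1 to 8W. Filled points passed an adjusted p of 0.05 in edgeR and bars are list medians. The points at the far left are fitted values of Fgf8 before birth and Kcne2 after it, which had few or no counts at the later age. Of the genes repressed by TBX3, 5 of 6 are filled to the right in the embryo, and of the conduction factors, 5 of 8 are filled to the left after birth.

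By Pearson's correlation of mean log2 CPM over the 10 ages, among 12839 genes whose mean reached 1 CPM, the genes closest to Hcn2 were Abcc1 (0.9964), Sigirr (0.9921) and Pi16 (0.9914). Abcc1, a transporter gene, went from 9.84 CPM at E10.5 to 97.8 CPM at 2W. Closest to Hcn4 were Snord17 (0.9271), Sel1l3 (0.9230) and Asic1 (0.8902). Sel1l3 had its lowest mean at P1 (0.982 CPM), like Hcn4. Closest to Shox2 were Acvr1c (0.9880), Col13a1 (0.9834) and Myrf (0.9821), and closest to Isl1 were Acvr1c (0.9962), Unc5c (0.9958) and Oprl1 (0.9956). Acvr1c, a receptor gene of the TGF-beta family, had its highest mean at E12.5 with 8.65 CPM and stood at 0.449 CPM at 8W. Among the 3 genes closest to Tbx3 were Tmem181a (0.8545) and Klf3 (0.8515), and Klf3 too was lowest at E16.5 (52.9 CPM) and highest at 2W (90.7 CPM). Among the 5 genes themselves, Shox2 and Isl1 had 0.98, Hcn2 and Isl1 -0.95, Hcn2 and Shox2 -0.92, Hcn2 and Tbx3 0.57 and Hcn2 and Hcn4 -0.30. These values describe 10 age means that share the same libraries and the same scaling.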

How the data were processed

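The authors deposited 1 table of expected counts per gene for all 30 samples. Poly(A) RNA was sequenced, per the labels' protocols, and STAR 2.5.3a, fastp 0.18.0 and the builds mm10 and GRCm38 are named per the submitters' processing notes. How reads were counted, with which annotation and by strand or not, is not given in the sources used here. Of the values, 6.94% were not whole (tolerance 1e-06), and all were rounded. Symbols and places came from GENCODE M21 by identifier without version (48144 of 48820 matched). The table gives Hcn4 another identifier version than GENCODE M21. Promoters came from RefSeq (GRCm38.p6).

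Tests used edgeR 4.0.16 (R 4.3.3) with filterByExpr, TMM, robust quasi-likelihood F tests and Benjamini-Hochberg adjustment over 19280 genes. A single fit held the 10 ages (20 residual degrees of freedom) and gave 1 test over all ages and 12 comparisons. SE is the size of the log2 change over the root of F. The Hcn2 share was tested on the log2 ratio with 0.5 counts added. Likeness used log2 CPM (prior count 2). Neighbours in likeness were the 3 closest genes. Of each of 6 lists, at most the 3 called genes with the largest changes each way in E18.5 against E10.5 and in 8W against P1 were named with values. Some genes that this rule gives are not reported here. The members and the lists were chosen with earlier results of these data known. All replicates differed by more than sampling noise. On simulated counts for 8W against P1 44.8% of 67 genes changed 1.5-fold, 82.1% of 67 changed 2-fold and 95.5% of 66 changed 4-fold were called, with 11 false calls among 18307 genes. The simulation changed only a small part of the genes, while 66.8% of tested genes were called for this comparison in the data. Its rates may thus not hold for the data.

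Alternatives were DESeq2 1.42.0, scaling by upper quartile, RLE or library size alone, a filter of 1 CPM in 3 libraries or none, leaving out mitochondrial and globin genes, a sex term from Xist and Y transcripts, a replicate block, fits of 6 samples, and fits without each library. Figures were drawn with matplotlib 3.10.9 in Python 3.11.15.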

Additional observations from a re-analysis of the deposited data

How the results depend on the processing

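Among results for single pacemaker genes, 1755 of 1800 with a library left out and 568 of 597 under other settings kept their direction and their side of the threshold. Calls among the 5 genes moved with library size alone to 5 from 3 for 8W against E10.5 and to 3 from 1 for 8W against 4W. Of all genes, 20.2% were then called higher and 65.5% lower for 8W against E10.5. For 8W against 4W it was 4.15% higher and 19.5% lower. For the other fits below the share of all genes called is not given, so those counts describe the 5 genes alone. With only the 6 samples of a comparison they moved to 1 from 2 for E12.5 against E10.5, to 3 from 1 for E14.5 against E12.5, to 1 from 0 for E18.5 against E16.5, to 1 from 2 for 4W against 2W and to 3 from 1 for 8W against 4W, and with the sex term to 1 from 2 for 4W against 2W. With a library left out, calls ranged from 1 to 3 for E12.5 against E10.5, from 1 to 4 for E16.5 against E14.5, from 0 to 1 for E18.5 against E16.5, from 2 to 4 for P1 against E18.5, from 2 to 3 for 1W against P1, from 1 to 2 for 4W against 2W and from 1 to 2 for 8W against 4W. The sign turned for Tbx3 in 8W against P1 (-0.70 with library size alone, adjusted p = 6.2e-05, and -0.12 with upper quartile factors), in E12.5 against E10.5 (-0.00 with 6 samples) and in 1W against P1 (-0.03 with library size alone), and for Hcn4 (-0.21) and Shox2 (-0.17) in 2W against 1W with library size alone. With a library left out, log2 changes that crossed 0 ranged from -0.06 to 0.18 for Tbx3 in 8W against P1, -0.23 to 0.01 in 8W against E10.5 and -0.04 to 0.13 in E12.5 against E10.5, from -0.54 to 0.33 for Hcn2 and -0.04 to 0.13 for Hcn4 in E14.5 against E12.5, from -0.05 to 0.40 for Hcn2 in E18.5 against E16.5, from -0.29 to 0.37 for Hcn4 and -0.32 to 0.36 for Shox2 in 2W against 1W, and from -0.08 to 1.50 for Isl1 in 4W against 2W. None of these was called in the main result, and where the scaling made the difference the cause was not tested beyond the shift of the median of all genes. Same-numbered libraries did not deviate together (correlations between -0.102 and 0.114), and the replicate block left 4 calls between P1 and 8W, 3 between E18.5 and P1 and 4 between E10.5 and E18.5 and changed no call of the 5 genes. Depth limited Isl1 from 1W on and Hcn2 at E10.5, where libraries held 13 counts or fewer.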
